A study of Mus with 21 samples.

Results

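The leucine-rich repeat transmembrane neuronal genes *Lrrtm1* to *Lrrtm4* and the SLITRK genes *Slitrk1* to *Slitrk6* encode membrane proteins that organize synapses. The members were taken by symbol, without a rule on their values but with earlier results of these data known. They are 10 of the 55335 genes listed in the deposited count table. All 10 were among the 30552 genes that were tested. The libraries hold poly(A) RNA from whole brains of female mouse embryos at E17.5, 1 library per embryo, sequenced as paired-end reads. The 21 libraries come from 5 WT embryos (written *Wapl* +/+; *Nipbl* +/+ in the labels), 3 *Nipbl+/-* embryos (*Wapl* +/+; *Nipbl* +/delta), 7 *WaplΔ/+* embryos (*Wapl* delta/+ or *Wapl* +/delta, with *Nipbl* +/+) and 6 double heterozygotes (*Wapl* delta/+ or *Wapl* +/delta, with *Nipbl* +/delta). The *WaplΔ* allele lacks the promoter and the first exons after *E2a-Cre* recombination, and the *Nipbl* null allele arises in the male germ line of sires that carry *Stra8-iCre*. Both deletions are therefore present in every cell of the embryo. On the C57BL/6J background that the study used, *Nipbl+/-* mice die around birth. The embryos came from a pair of crosses and several litters, which the labels do not assign to libraries. Cohesin is a ring complex that depends on NIPBL for its deposition on chromatin and on WAPL for its detachment, and the comparisons ask how the dosage of each factor, alone and together, affects the level of these transcripts.

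LRRTM and SLITRK proteins sit in the postsynaptic membrane, where an extracellular leucine-rich repeat domain binds a receptor on the facing axon and triggers assembly of a presynaptic terminal. LRRTM proteins bind neurexins, and LRRTM3 and LRRTM4 also bind heparan sulfate proteoglycans such as glypicans. SLITRK proteins bind the receptor phosphatases of the LAR family, PTPRD, PTPRS and PTPRF. Most members promote excitatory synapses, and SLITRK3 promotes inhibitory ones. Their genes become active as cortical and hippocampal neurons mature, and synapse formation is still at an early stage in the mouse brain before birth.

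Total counts per library ranged from 25682566 to 35818767 (median 31830396). Levels are given as counts scaled to library size (CPM) with TMM factors, and differences between groups as log2 fold changes of the mutant over the reference group. The targeted genes followed the labels, with *Nipbl* at 54.3% ± 4.52 (SD, n = 3) of the WT mean in *Nipbl+/-* brains and *Wapl* at 46.7% ± 4.51 (SD, n = 7) in *WaplΔ/+* brains. In double heterozygotes *Nipbl* stood at 54.8% and *Wapl* at 49.3% of the WT mean. A mitochondrial transcript, *mt-Nd3*, split the libraries into 9 with 52 to 106 counts and 12 with 0 to 6 counts. The 9 were WT replicates 4 and 5, *WaplΔ/+* replicates 3 to 7 and double-heterozygote replicates 5 and 6, so all 3 *Nipbl+/-* libraries were in the low set. Among libraries with a *Wapl* deletion, the 6 written delta/+ were all in the low set and the 7 written +/delta all in the high set, so which allele is written first, and any cross or litter that goes with it, cannot be told apart from the *mt-Nd3* set. Values within the sets are given below for some members, in the comparisons with WT only. No pair of replicates agreed within sampling noise (chi-square per degree of freedom from 2.28 to 21.6 over the tested genes).

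The members lie in several groups along the genome (GRCm38 coordinates of the reference table). *Slitrk1* (chromosome 14, 108909988 to 108914239), *Slitrk6* (110747338 to 110755204) and *Slitrk5* (111675115 to 111683144) form a gene cluster on chromosome 14, on which *Wapl* also lies, 74.2 Mb away from *Slitrk1*. *Slitrk4* (64264883 to 64277345) and *Slitrk2* (66648951 to 66661402) lie 2.37 Mb apart on the X chromosome. *Lrrtm1* (77229210 to 77259915) and *Lrrtm4* (80018858 to 80810162) lie 2.76 Mb apart on chromosome 6, *Lrrtm2* lies on chromosome 18, *Lrrtm3* on chromosome 10 and *Slitrk3* on chromosome 3. *Lrrtm1*, *Lrrtm2* and *Lrrtm3* lie inside the spans of *Ctnna2*, *Ctnna1* and *Ctnna3*, which encode α-catenins of cell junctions. The strand setting of the counting is not given in the sources used here, so reads of a nested gene and of its host cannot be told apart for certain. The same holds for *Lrrtm4* and *Slitrk5*, which overlap long noncoding RNA genes.

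All members were counted in every library. The highest counts were those of *Slitrk1* (1420 to 2102 per library), and the lowest were those of *Slitrk6* (126 to 229) and *Slitrk4* (257 to 547). Counting error alone gives a coefficient of variation of 7.76% for *Slitrk6* at its median count, 5.12% for *Slitrk4* and 2.398% for *Slitrk1*. Levels of different members are not ranked against each other, since transcript lengths were not used here. Between replicates of the same group the coefficient of variation of a member ranged from 2.27% to 9.21% in WT (median 6.51%), from 0.761% to 16.2% in *Nipbl+/-*, from 2.01% to 16.0% in *WaplΔ/+* and from 2.29% to 10.8% in double heterozygotes.

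The order of the group means was nearly the same for every member. WT had the highest mean for 9 of 10 members and *Nipbl+/-* the lowest for 9 of 10, and for 8 of 10 the order was WT, *WaplΔ/+*, double heterozygote and *Nipbl+/-* from high to low. The exceptions were *Slitrk5*, with its highest mean in *WaplΔ/+*, and *Slitrk6*, with its lowest mean in double heterozygotes. Neighbours in this order could not be separated gene by gene, because no member passed the test between WT and *WaplΔ/+*, between *WaplΔ/+* and double heterozygotes, or between double heterozygotes and *Nipbl+/-*. All 3 comparisons against WT use the same 5 WT libraries, so a high or low WT library moves all of them at once.

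**Figure D1:**
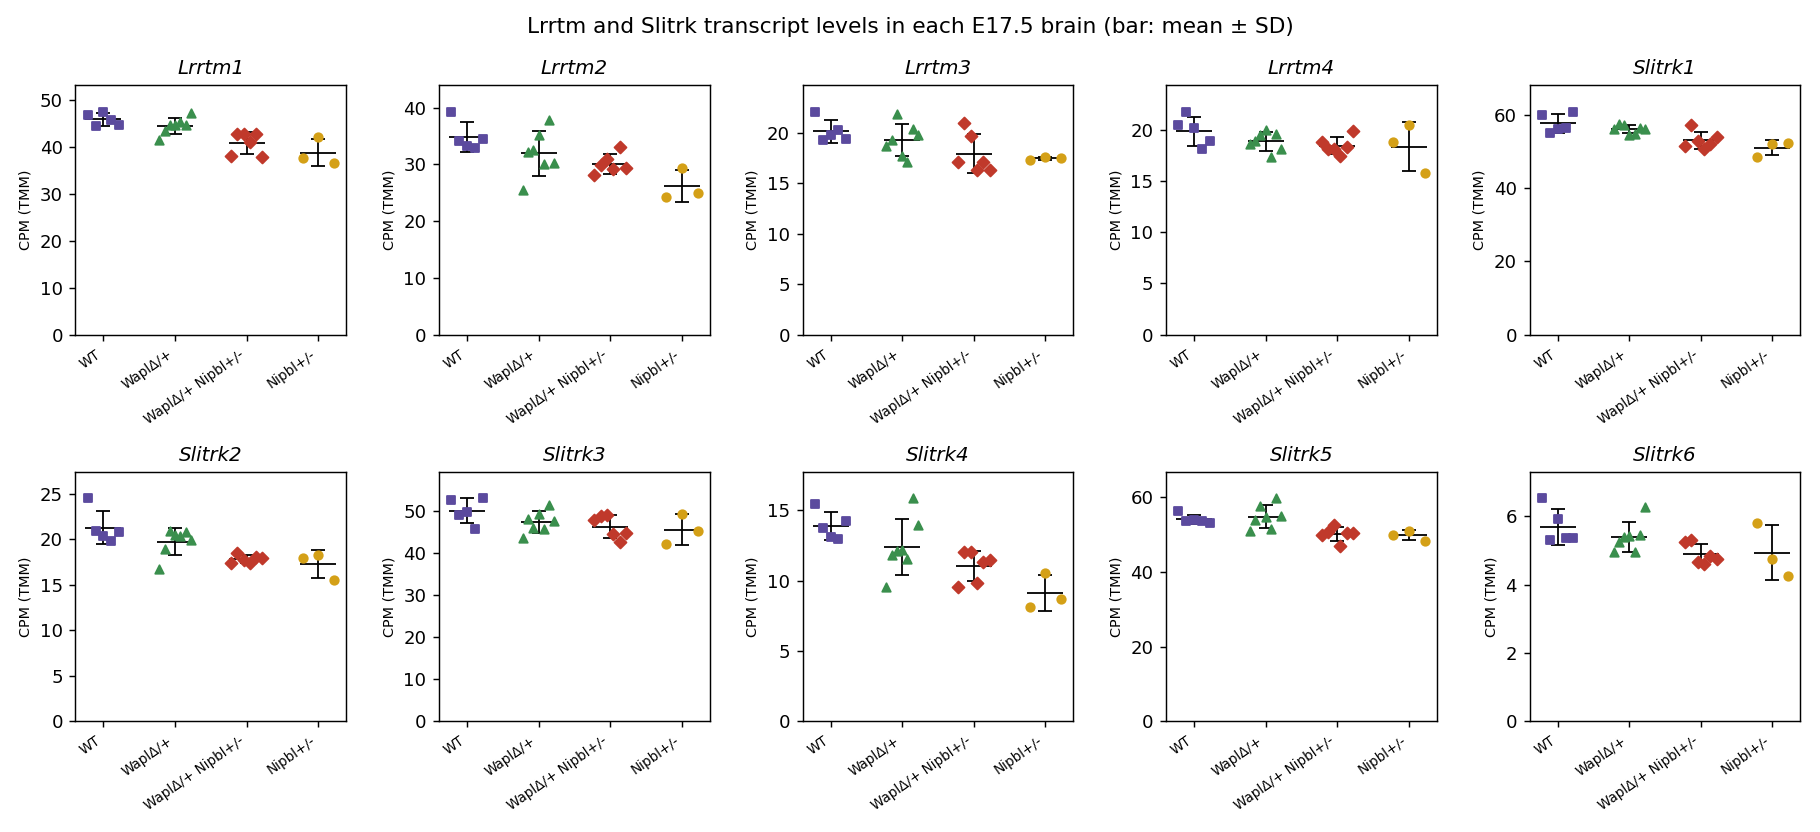
Level of each of the 10 genes in each embryonic brain, in CPM after TMM scaling (vertical axis from 0), by genotype. Points are embryos, horizontal bars are group means and whiskers are ± 1 SD; *Slitrk4* shows the largest separation, with 3 *Nipbl+/-* points between 8.12 and 10.6 CPM and 5 WT points between 12.9 and 15.5 CPM.

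In *Nipbl+/-* brains 7 of the 10 members were called lower than in WT, and 0 were called higher. A gene was called when its Benjamini-Hochberg adjusted *P* over all tested genes in edgeR's quasi-likelihood test fell below 0.10. The members called lower were *Lrrtm1*, *Lrrtm2*, *Lrrtm3*, *Slitrk1*, *Slitrk2*, *Slitrk4* and *Slitrk5*, and the fitted changes ran from -8.45% for *Slitrk5* to -34.5% for *Slitrk4*. Among all tested genes 11.2% were called in either direction and 6.96% were called lower, and among the 17303 genes that averaged 1 CPM or more, as all members do, 11.6% were called lower. The median log2 fold change was -0.21 over the 10 members and -0.01 over all tested genes. The same 7 members had every *Nipbl+/-* library below every WT library, which was the case for 6.90% of tested genes. Within the libraries with low *mt-Nd3* counts, 3 *Nipbl+/-* against 3 WT, 5 members were called lower in edgeR, beside 4.36% of tested genes in that fit, and *Slitrk1* (adjusted *P* = 0.103) and *Slitrk5* (adjusted *P* = 0.14) were not. *P* values set the difference between groups against the spread between these embryos. The tests treated embryos as independent, since the labels do not give their litters. In RNA from whole brains fewer cells of a type and less RNA per cell cannot be told apart.

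*Slitrk4* was the member with the largest difference in each comparison with WT. This X-linked gene belongs to a family first described for its effects on neurite outgrowth. The 5 WT libraries held 15.5, 13.7, 13.1, 12.9 and 14.2 CPM, and the 3 *Nipbl+/-* libraries held 8.12, 10.6 and 8.72 CPM. The highest *Nipbl+/-* library was therefore below the lowest WT library. The mean in *Nipbl+/-* brains was 65.7% ± 9.16 (SD, n = 3) of the WT mean (log2 fold change -0.61, standard error 0.0862, edgeR adjusted *P* = 0.000321), rank 131 of all tested genes by *P*. Within the low *mt-Nd3* libraries the log2 fold change was -0.63 (edgeR adjusted *P* = 0.005).

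*Slitrk2*, the other X-linked member, encodes an organizer of excitatory synapses. Its level was 24.5, 20.9, 20.4, 19.8 and 20.8 CPM in WT and 18.0, 18.3 and 15.5 CPM in *Nipbl+/-* brains. The groups did not overlap, with a *Nipbl+/-* mean at 81.1% of the WT mean (log2 fold change -0.31, standard error 0.0709, edgeR adjusted *P* = 0.0113). WT replicate 1 stood above the other 4 WT libraries, and without it the log2 fold change was -0.24 and was still called.

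The members of the chromosome 14 cluster changed by smaller amounts. *Slitrk1*, a gene that has been linked to Tourette syndrome, was at 57.7 ± 2.52 CPM (SD, n = 5) in WT and 51.1 ± 2.12 CPM (SD, n = 3) in *Nipbl+/-* brains (log2 fold change -0.18, standard error 0.0446, edgeR adjusted *P* = 0.0159). Its WT libraries lay between 55.2 and 60.9 CPM and its *Nipbl+/-* libraries between 48.6 and 52.4 CPM. *Slitrk5*, whose loss causes compulsive grooming in mice, went from 54.1 ± 1.23 CPM in WT (53.0 to 56.2) to 49.8 ± 1.33 CPM in *Nipbl+/-* brains (48.3 to 51.0). This difference, -0.13 on the log2 scale with a standard error of 0.0393 (edgeR adjusted *P* = 0.055), was the smallest of those called. The call of *Slitrk5* was lost when WT replicate 1, WT replicate 2, *Nipbl+/-* replicate 1 or *Nipbl+/-* replicate 3 was left out, with adjusted *P* values up to 0.274. The call of *Slitrk1* was lost without *Nipbl+/-* replicate 1 (adjusted *P* = 0.107). *Slitrk6*, known from the inner ear and the retina, was not called. It held 6.52, 5.31, 5.93, 5.36 and 5.37 CPM in WT and 5.81, 4.76 and 4.24 CPM in *Nipbl+/-* brains, so the groups overlapped (log2 fold change -0.21, 95% confidence interval -0.45 to 0.02, edgeR adjusted *P* = 0.309).

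*Slitrk3* differs from the rest of its family in promoting inhibitory synapses, and it did not pass the threshold. Its libraries ranged from 45.7 to 53.0 CPM in WT and from 42.3 to 49.4 CPM in *Nipbl+/-* brains, with a log2 fold change of -0.14 (95% confidence interval -0.26 to -0.02, edgeR adjusted *P* = 0.148). The interval lies below 0 and includes the fold changes of *Slitrk1* and *Slitrk5*, so the data do not separate the inhibitory organizer from those members.

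Among the LRRTM genes, *Lrrtm2* showed the largest difference. Its protein binds neurexins with high affinity and stabilizes AMPA receptors. The 5 WT libraries held 39.3, 34.1, 33.3, 32.9 and 34.5 CPM, and the 3 *Nipbl+/-* libraries held 24.2, 29.3 and 24.9 CPM. These groups did not overlap, and the *Nipbl+/-* mean was 75.2% ± 7.995 (SD, n = 3) of the WT mean (log2 fold change -0.42, standard error 0.0665, edgeR adjusted *P* = 0.000816). Within the low *mt-Nd3* libraries the log2 fold change was -0.45 (edgeR adjusted *P* = 0.00725).

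*Lrrtm1*, another excitatory synapse organizer, was at 46.9, 44.5, 47.6, 45.8 and 44.9 CPM in WT and at 37.7, 42.2 and 36.7 CPM in *Nipbl+/-* brains. No *Nipbl+/-* library reached the lowest WT library, and the log2 fold change was -0.25 (standard error 0.0493, edgeR adjusted *P* = 0.00428). *Lrrtm3* was at 20.1 ± 1.16 CPM in WT and 17.45 ± 0.133 CPM in *Nipbl+/-* brains, where the 3 libraries differed by less than counting error would give (a coefficient of variation of 0.761% against 4.28% expected from the counts). The groups did not overlap (log2 fold change -0.21, standard error 0.0556, edgeR adjusted *P* = 0.0232). *Lrrtm4*, whose protein like LRRTM3 binds glypicans, had overlapping groups of 18.2 to 21.8 CPM in WT and 15.8 to 20.5 CPM in *Nipbl+/-* brains. Its log2 fold change of -0.12 was not called (95% confidence interval -0.28 to 0.04, edgeR adjusted *P* = 0.437).

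The host genes of the nested members were not called. *Ctnna1* had a log2 fold change of 0.01 in *Nipbl+/-* brains (95% confidence interval -0.10 to 0.11, edgeR adjusted *P* = 0.965), beside -0.42 for *Lrrtm2* within it. *Ctnna2* had 0.03 (edgeR adjusted *P* = 0.644), beside -0.25 for *Lrrtm1*. *Ctnna3* was low in these brains, at 0.341 ± 0.108 CPM in WT, and its log2 fold change of -0.35 had a wide interval (-1.11 to 0.41, edgeR adjusted *P* = 0.672).

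**Figure D2:**
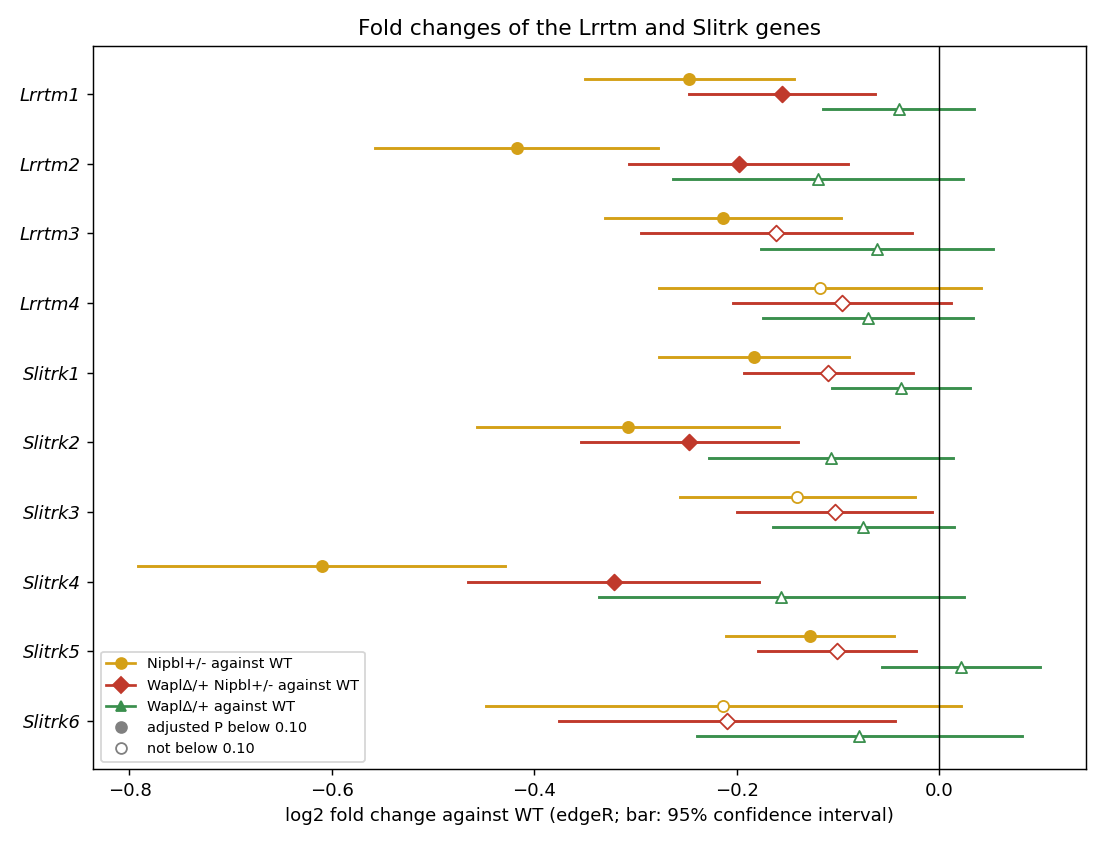
Log2 fold change of each gene against WT (horizontal axis) in *Nipbl+/-* brains (circles), double heterozygotes (diamonds) and *WaplΔ/+* brains (triangles), with 95% confidence intervals from edgeR. Filled symbols have an adjusted *P* below 0.10: 7 of 10 circles, 4 of 10 diamonds and 0 of 10 triangles; all 3 sets share the same WT libraries.

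In double heterozygotes 4 of 10 members were called lower than in WT and 0 higher, beside 3.28% of all tested genes called in either direction and 2.46% called lower. These were *Lrrtm1*, *Lrrtm2*, *Slitrk2* and *Slitrk4*. The median log2 fold change of the 10 members was -0.16 against a median near 0.00 over all tested genes. Before adjustment, 9 of 10 members had a *P* below 0.05 in edgeR, as did 13.5% of all tested genes. Double-heterozygote libraries lay entirely below the WT libraries for 5 members (*Lrrtm1*, *Slitrk2*, *Slitrk4*, *Slitrk5* and *Slitrk6*), beside 2.29% of tested genes.

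*Slitrk4* ranged from 9.58 to 12.03 CPM in double heterozygotes with a median of 11.4, below the WT range of 12.9 to 15.5 CPM. Its mean was 79.5% ± 7.76 (SD, n = 6) of the WT mean (log2 fold change -0.32, standard error 0.0688, edgeR adjusted *P* = 0.0186). *Slitrk2* was the least variable member in this group, with a lowest, median and highest level of 17.4, 17.8 and 18.5 CPM, under the lowest WT library at 19.8 CPM (log2 fold change -0.25, standard error 0.0513, edgeR adjusted *P* = 0.0161). These X-linked members kept their calls in double heterozygotes whichever single library was left out.

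*Lrrtm2* and *Lrrtm1* were closer to the threshold. *Lrrtm2* ranged from 28.2 to 33.1 CPM (median 29.6) and overlapped with the lowest WT library (log2 fold change -0.20, standard error 0.0518, edgeR adjusted *P* = 0.0573). *Lrrtm1* ranged from 38 to 42.9 CPM (median 42.0), below the lowest WT value of 44.5 CPM (log2 fold change -0.15, standard error 0.0440, edgeR adjusted *P* = 0.0826). Without WT replicate 1, double-heterozygote replicate 1 or double-heterozygote replicate 4, both calls were lost and 2 of 10 members were called. Fits that each left out 1 library called 454 to 2504 of all tested genes in this comparison, against 1001 with every library. The call of *Lrrtm1* was also lost without WT replicate 2, 3 or 4 or double-heterozygote replicate 6 (edgeR adjusted *P* up to 0.202). The other 6 members had log2 fold changes from -0.21 (*Slitrk6*, 95% confidence interval -0.38 to -0.04, edgeR adjusted *P* = 0.225) to -0.10 (*Lrrtm4*, -0.20 to 0.01, adjusted *P* = 0.443).

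Restricted to libraries of the low *mt-Nd3* set (4 double heterozygotes, 3 WT), *Lrrtm2* (log2 fold change -0.26, edgeR adjusted *P* = 0.0372), *Slitrk2* (-0.30, adjusted *P* = 0.0291) and *Slitrk4* (-0.37, adjusted *P* = 0.0546) were called, beside 1.58% of tested genes called lower in that fit, and *Lrrtm1* was not (-0.16, adjusted *P* = 0.16). Within the high set, of 2 libraries a group, the same genes had log2 fold changes of -0.09, -0.16, -0.24 and, for *Lrrtm1*, -0.15, and none was called by edgeR (adjusted *P* from 0.814 to 0.861). With 2 libraries a group, this fit cannot tell an absent change from one too small to be called.

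In *WaplΔ/+* brains 0 of 10 members were called in either direction, beside 2.22% of all tested genes. In the edgeR test 0 of 10 had an unadjusted *P* below 0.05 (15.6% of tested genes did), and DESeq2 also called 0 of 10 (4.73% of tested genes). The log2 fold changes ran from -0.16 for *Slitrk4* (95% confidence interval -0.34 to 0.03, edgeR adjusted *P* = 0.401) to 0.02 for *Slitrk5* (-0.06 to 0.10, adjusted *P* = 0.836), with a median of -0.07 over the members. Over all 10 members the intervals reached from -0.34 to 0.10, so a reduction of *Slitrk4* as large as in *Nipbl+/-* brains lies outside them and one as large as in double heterozygotes does not. The groups overlapped for all 10 members, while 0.471% of tested genes lay entirely lower and 0.733% entirely higher in *WaplΔ/+* brains.

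The spread among *WaplΔ/+* brains was wide for some members. *Slitrk4* ranged from 9.54 to 15.9 CPM (median 12.1), from below the lowest double heterozygote to above the highest WT library. *Lrrtm2* ranged from 25.5 to 37.8 CPM (median 32.1). Both minima were in *WaplΔ/+* replicate 1 and both maxima in replicate 6. For *Slitrk4* the log2 fold change was -0.40 (edgeR adjusted *P* = 0.219) among low *mt-Nd3* libraries, 2 *WaplΔ/+* against 3 WT, and -0.05 (edgeR adjusted *P* = 0.951) among high ones, 5 against 2. For *Lrrtm2* these values were -0.30 (edgeR adjusted *P* = 0.267) and -0.02 (adjusted *P* = 0.981). The low libraries were those written delta/+ and the high ones those written +/delta, and the difference between the sets was not tested.

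The effect of losing a *Wapl* allele in *Nipbl+/-* brains was asked by comparing double heterozygotes with *Nipbl+/-* brains. No member was called (0 of 10), and 0.00655% of all tested genes were. Members were between -0.01 and 0.28 on the log2 scale, with a median of 0.05. *Slitrk4* was 21.2% higher in double heterozygotes than in *Nipbl+/-* brains (log2 fold change 0.28, 95% confidence interval 0.06 to 0.49, unadjusted *P* = 0.0142 and adjusted *P* = 0.971 in edgeR), and *Lrrtm2* was 15.5% higher (0.21, 0.06 to 0.36, unadjusted *P* = 0.0105, adjusted *P* = 0.971). For both the intervals exclude 0 while the adjusted *P* does not pass, and these were 2 of 10 members with an unadjusted *P* below 0.05, beside 4.12% of tested genes. The groups overlapped for all 10 members, while 1.29% of tested genes lay entirely lower and 0.897% entirely higher in double heterozygotes. For *Slitrk2* the difference was 0.05 (95% confidence interval -0.09 to 0.19), for *Slitrk5* 0.02 (-0.09 to 0.12) and for *Slitrk6* -0.01 (-0.24 to 0.23).

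The interaction term, fitted on all 4 groups, asks whether the effect of both deletions differs from the sum of the single effects on the log2 scale. EdgeR called 0 members and 0.00% of all tested genes, of which 13.8% had an unadjusted *P* below 0.05. The largest terms belonged to *Slitrk4* (0.41, 95% confidence interval 0.11 to 0.70, unadjusted *P* = 0.00821, adjusted *P* = 0.213) and *Lrrtm2* (0.30, 0.08 to 0.52, unadjusted *P* = 0.00933, adjusted *P* = 0.22). These were also the only members with an unadjusted *P* below 0.05, and a positive term means a smaller reduction than the sum. Over the other 8 members the terms ran from -0.03 (*Slitrk5*) to 0.13 (*Slitrk2*). DESeq2 called *Lrrtm2* (log2 term 0.33, adjusted *P* = 0.0854) among 2.60% of tested genes. It gave no adjusted *P* for *Lrrtm3*, *Lrrtm4*, *Slitrk2*, *Slitrk4* and *Slitrk6*.

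Double heterozygotes and *WaplΔ/+* brains differ by the *Nipbl* allele. No member was called between them (0 of 10, beside 1.02% of tested genes), and 3 of 10 had an unadjusted *P* below 0.05 in edgeR, beside 9.94% of tested genes. All 10 members were lower in double heterozygotes, with log2 differences from -0.17 for *Slitrk4* (95% confidence interval -0.36 to 0.03) to -0.03 for *Lrrtm4*. *Slitrk5* had the lowest adjusted *P* (-0.12, 95% confidence interval -0.21 to -0.03, edgeR adjusted *P* = 0.278). Between the single heterozygotes, 0 of 10 members were called by edgeR (beside 1.16% of tested genes), and DESeq2 called 3, all lower in *Nipbl+/-* brains (beside 2.12% of tested genes). Before adjustment, 6 of 10 members had a *P* below 0.05 in edgeR, as did 10.3% of tested genes, and the log2 differences of all 10 were negative, with a median of -0.14. The members called by DESeq2 were *Slitrk4* (edgeR log2 difference -0.44, edgeR adjusted *P* = 0.15, DESeq2 adjusted *P* = 0.0428), *Lrrtm1* (-0.20, edgeR adjusted *P* = 0.117, DESeq2 adjusted *P* = 0.0355) and *Slitrk1* (DESeq2 adjusted *P* = 0.0633). For *Slitrk1* and *Slitrk5* all 3 *Nipbl+/-* libraries lay below all 7 *WaplΔ/+* libraries, beside 1.94% of tested genes. In the high *mt-Nd3* set were 5 of 7 *WaplΔ/+*, 2 of 6 double-heterozygote and 0 of 3 *Nipbl+/-* libraries. Genotype and *mt-Nd3* set therefore partly coincide in both comparisons with *WaplΔ/+* brains, and also between double heterozygotes and *Nipbl+/-* brains.

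The number of members below the lowest WT library varied between embryos of a group. Any single mutant library lay below all 5 WT libraries for 15.9% to 25.2% of tested genes, and for up to 33.3% of the genes that averaged 1 CPM or more. Of the *Nipbl+/-* libraries, replicate 3 lay below the lowest WT library for 10 of 10 members, with a median of 79.7% of the WT mean over the members, while replicates 1 and 2 did so for 8 of 10 each (medians of 84.4% and 88.8%). Double-heterozygote replicate 4 lay below all WT libraries for 10 of 10 members, and replicate 2 for 6 of 10. In *WaplΔ/+* brains this number ran from 0 in replicate 6 to 8 in replicates 1 and 5. WT replicate 1 was above the WT mean for 10 of 10 members (median 107%) and was the highest WT library for 6 of them. Without it, 6 of 10 members were called lower in *Nipbl+/-* brains. Fits that each left out 1 library called 1828 to 4788 of all tested genes in this comparison, against 3422 with every library. Such a member count can thus not be separated from a change in calls over all tested genes.

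**Figure D3:**
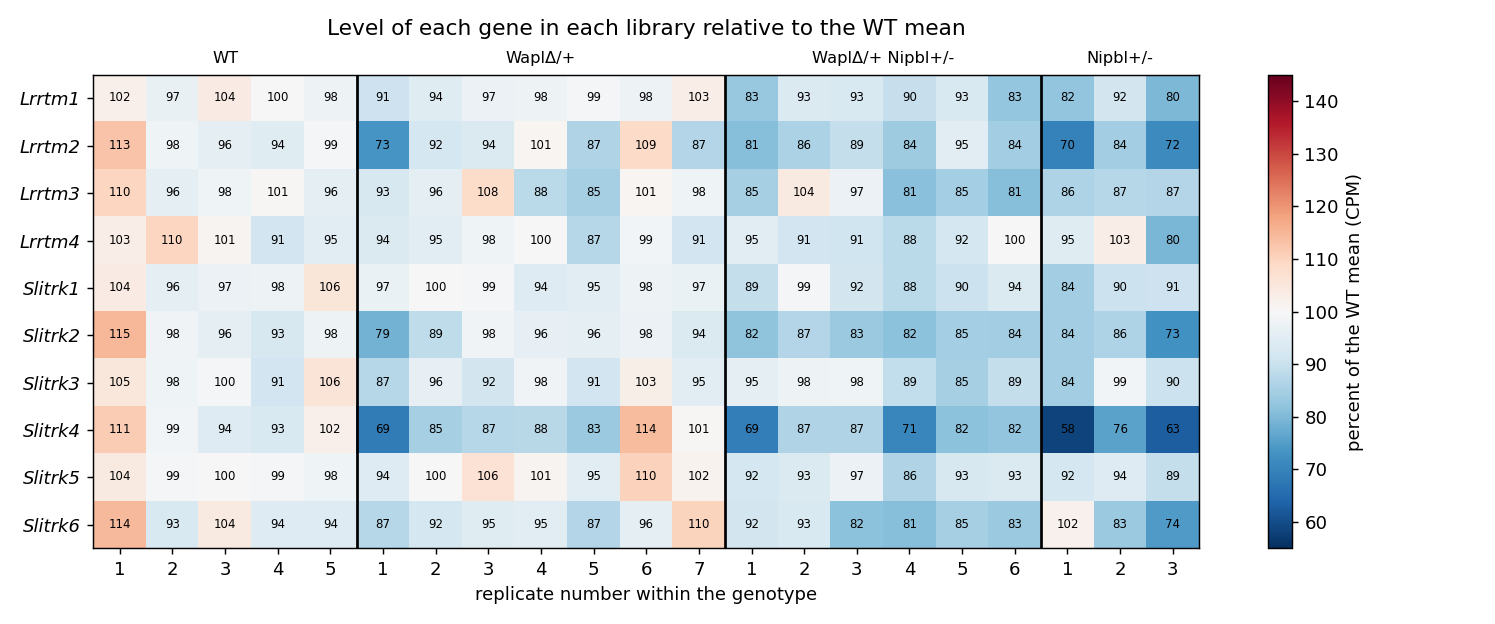
Level of each gene (rows) in each library (columns, grouped by genotype and numbered by replicate) as a percentage of the WT mean, with blue below and red above 100. The *Slitrk4* row holds the lowest values, with 58.4% in *Nipbl+/-* replicate 1, and WT replicate 1 is at or above 102% in every row.

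Members varied together across libraries. The 45 pairs of members had Pearson correlations of log2 CPM between 0.26 and 0.91 (median 0.64) over the 21 libraries, and after subtraction of the group means between -0.08 and 0.80 (median 0.41). The highest was that of *Lrrtm2* and *Slitrk4* (r = 0.91, 0.80 within groups), which lie on different chromosomes, followed by *Lrrtm2* and *Slitrk2* (0.84) and by *Slitrk2* and *Slitrk4* (0.82). *Lrrtm4* and *Slitrk1* had the lowest correlation. These values describe the libraries, whose points share library, dissection and genotype.

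**Figure D4:**
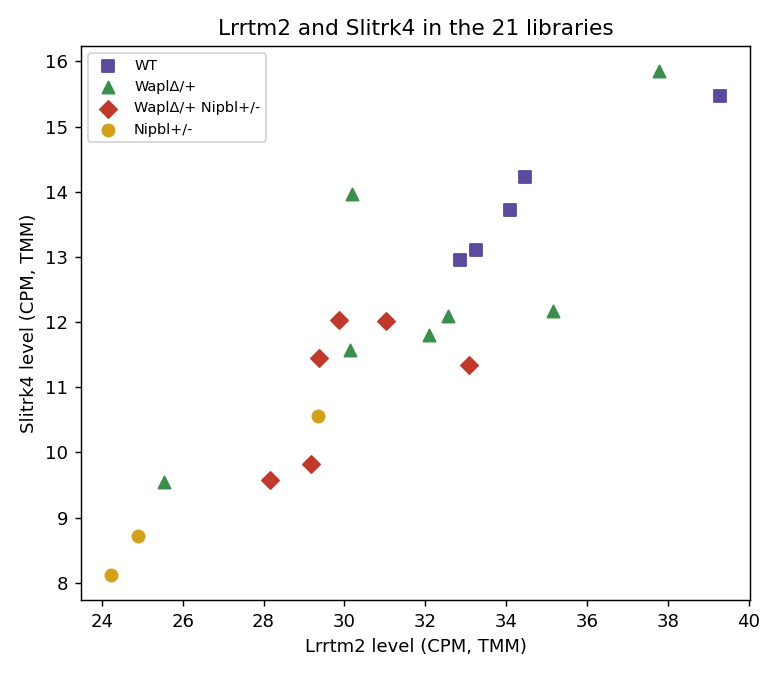
Levels of *Lrrtm2* (horizontal axis) and *Slitrk4* (vertical axis) in the 21 libraries, both in CPM after TMM scaling, with genotype by symbol and colour. The points rise together (r = 0.91 on the log2 scale), from *Nipbl+/-* brains at 24.2 to 29.3 CPM of *Lrrtm2* at the lower left to WT brains at 32.9 to 39.3 CPM, with *WaplΔ/+* brains spread across that range.

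Over the same libraries, each member was set against the other genes among 17293 that averaged 1 CPM or more. *Slitrk4* was most like *Alcam* (r = 0.93), *Uhmk1* (0.93) and *Fut9* (0.93), and *Lrrtm2* was most like *Mfap3l* (0.93), *Tmem106b* (0.91) and *B3galt2* (0.91). *Lrrtm1* followed *Ccdc85a* (0.92), *Npy1r* (0.91) and *Kcnj2* (0.91), and *Slitrk5* followed *Diras2* (0.93), *Scn3b* (0.90) and *Echdc2* (0.89). For *Slitrk2* the closest genes were *Ap1s2* (0.90), *Kitl* (0.88) and *Mc5r* (0.88), for *Lrrtm3* *Gas7* (0.87), *Cd47* (0.84) and *Dsel* (0.84), and for *Slitrk1* *Kcnd2* (0.85), *Hs6st2* (0.85) and *Spock1* (0.85). *Slitrk3* was closest to *Gabrq* (0.85), *Nek1* (0.85) and *Nrg3* (0.82), *Slitrk6* to *Ufm1* (0.83), *Sgk1* (0.79) and *Lmo3* (0.78), and *Lrrtm4* to *Gm4409* (0.82), *Slc27a6* (0.78) and *Ptger4* (0.76).

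The presynaptic partners of these proteins moved in both directions in *Nipbl+/-* brains. Of 14 neurexin, LAR-type phosphatase, glypican and syndecan genes, 5 were called lower and 3 higher, with a median log2 fold change of -0.07. The genes called lower included the glypican *Gpc6* (-0.39, standard error 0.120, edgeR adjusted *P* = 0.0545) and the syndecan *Sdc2* (-0.31, standard error 0.0687, adjusted *P* = 0.008). Further partners are named after their values were seen. *Nrxn3* (-0.25, edgeR adjusted *P* = 0.0147) and *Ptprd*, which binds SLITRK3 among others (-0.22, adjusted *P* = 0.00578), were called lower, while the related phosphatase *Ptprs* was called higher (0.25, adjusted *P* = 0.00171), as were the glypicans *Gpc2* and *Gpc3*. *Ptprf* (0.07, adjusted *P* = 0.221) and *Nrxn2* (-0.02, adjusted *P* = 0.865) were not called. In *WaplΔ/+* brains, where 0 members were called, 2 partners were called lower, among them *Nrxn3* (-0.26, edgeR adjusted *P* = 0.0425), and 3 higher. In double heterozygotes 3 were called lower, among them *Sdc2* (-0.18, edgeR adjusted *P* = 0.0738), and 1 higher, *Gpc3* (0.26, adjusted *P* = 0.0469).

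Other postsynaptic organizers, such as the neuroligins and the genes of the LRRC4, LRFN and FLRT families, were mostly lower where called. In *Nipbl+/-* brains 11 of 24 were called lower and 1 higher (median log2 fold change -0.12). The largest reductions were in *Il1rap* (-0.58, edgeR adjusted *P* = 0.000206) and *Il1rapl1* (-0.50, adjusted *P* = 0.0378), which like the SLITRK proteins bind PTPRD, and in the netrin-G ligand gene *Lrrc4c* (-0.33, adjusted *P* = 0.000335). In double heterozygotes 5 were called lower and 0 higher, led by *Lrfn2* (-0.31, edgeR adjusted *P* = 0.00295), and in *WaplΔ/+* brains 2 lower, *Nlgn1* (-0.19, adjusted *P* = 0.0402) and *Nlgn3* (-0.10, adjusted *P* = 0.0663).

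Of 14 postsynaptic scaffold genes, 5 were called lower and 2 higher in *Nipbl+/-* brains (median -0.03). *Dlgap2* (-0.53, edgeR adjusted *P* = 0.0291), *Homer2* (-0.52, adjusted *P* = 0.000291) and *Dlg2*, which encodes PSD-93 (-0.43, adjusted *P* = 0.000825), had the largest differences. Those genes were also called lower in *WaplΔ/+* brains, with log2 fold changes of -0.57, -0.37 and -0.25 (3 scaffold genes lower and 1 higher), and 3 scaffold genes were called lower in double heterozygotes. Of 14 genes for other neuronal leucine-rich repeat proteins, which resemble the members in their extracellular domain, 5 were called lower and 1 higher in *Nipbl+/-* brains (median -0.14). Among those that averaged 1 CPM or more the largest changes were in *Islr2* (0.22, edgeR adjusted *P* = 0.00137), *Lingo2* (-0.18, adjusted *P* = 0.0608) and *Lrrn3* (-0.18, adjusted *P* = 0.0183). In *WaplΔ/+* brains 1 was called lower and in double heterozygotes 3.

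**Figure D5:**
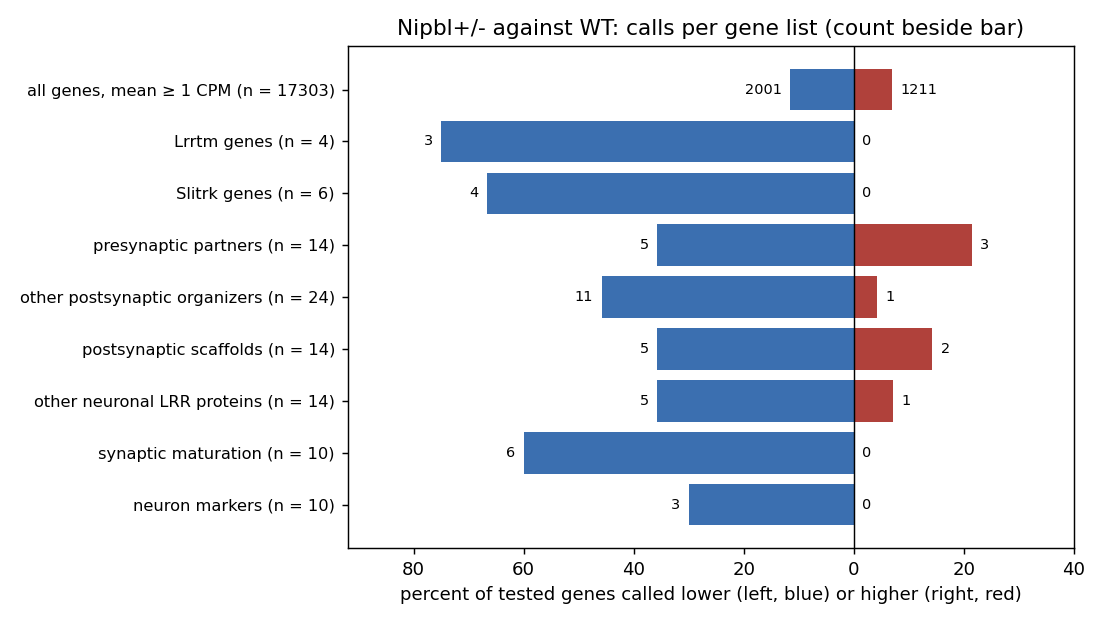
Percentage of tested genes of each list called lower (left of 0) or higher (right of 0) in *Nipbl+/-* brains against WT, with counts beside the bars; list sizes are in parentheses. *Lrrtm* genes have 3 of 4 and *Slitrk* genes 4 of 6 called lower, beside 11.6% of all genes that averaged 1 CPM or more.

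Markers of cell types and of maturation were also called, in both directions. Of 10 genes of synaptic maturation, 6 were called lower and 0 higher in *Nipbl+/-* brains, among them *Grin2b* (-0.36, edgeR adjusted *P* = 0.0023), *Nefm* (-0.29, adjusted *P* = 0.000148) and *Syt1* (-0.27, adjusted *P* = 0.00231), and their summed level was 3053 to 3387 CPM, below the WT range of 3444 to 3606 CPM. It was 3166 to 3382 CPM in double heterozygotes (1 called lower, *Syt1*) and 3265 to 3583 CPM in *WaplΔ/+* brains (1 called lower, *Grin2b*). Of 10 general neuron markers 3 were called lower and 0 higher in *Nipbl+/-* brains (sum 6353 to 6596 CPM, against 6601 to 6916 CPM in WT), 1 lower and 1 higher in double heterozygotes (6423 to 7115 CPM), and 0 in *WaplΔ/+* brains (6418 to 6700.1 CPM), and 3 genes (*Syt1*, *Snap25* and *Nefl*) stand in both lists. Progenitor markers had 3 of 8 called higher in *Nipbl+/-* brains (*Eomes*, *Sox2* and *Nes*), and their sum of 583 to 789 CPM overlapped with the WT range of 609 to 651 CPM. Their range was 593 to 776 CPM in double heterozygotes and 634 to 821 CPM in *WaplΔ/+* brains, with 0 called.

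Glial markers had 7 of 9 called lower in *Nipbl+/-* brains, led by *Aqp4* (-0.79, edgeR adjusted *P* = 0.00415) and *Pdgfra* (-0.60, adjusted *P* = 3.94e-05), and 7 of 9 in double heterozygotes. Their sum was 980 to 1041 CPM in WT, 723 to 891 CPM in *Nipbl+/-*, 779 to 959 CPM in double-heterozygote and 837 to 1077 CPM in *WaplΔ/+* brains, where 0 were called. Among regional markers, 6 of 13 were called higher and 1 lower in *Nipbl+/-* brains, with *En1* (0.33, edgeR adjusted *P* = 0.0465) and *En2* (0.29, adjusted *P* = 0.0512) of the midbrain and hindbrain among those called higher. The sum over the 13 regional markers was 705 to 755 CPM in *Nipbl+/-* and 706 to 762 CPM in WT brains. No marker of these lists had 0 counts throughout a group, and the part of cell composition, maturation or dissection in the member values was not tested.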

How the data were processed

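Adapters were removed by the authors using cutadapt 2.4, and reads were aligned to mm10 by STAR 2.5.3a and assigned to genes with featureCounts of Subread 1.6.4. They deposited raw read counts per gene, without normalization, for 21 libraries. The annotation, the strand setting and the handling of reads on several genes are not given in the sources used here. The authors left out 1 further *Nipbl+/-* library, which is not analysed here. Groups were taken from the sample labels.

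The counts were scaled with TMM and tested with the quasi-likelihood test of edgeR 4.0.16 in R 4.3.3, after checks on simulated data. The tested genes had normalized counts adding up to 10 or more across libraries, and a Benjamini-Hochberg adjusted *P* below 0.10 over all 30552 tested genes was called. Each comparison used the libraries of its own groups, and the interaction used all 4 groups. Standard errors and 95% confidence intervals come from the F statistic. Total counts of 25682566 to 35818767 per library set the precision.

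All 10 members are named in every comparison. From the lists of partners, other organizers, scaffolds, related proteins and cell markers, the text gives counts and up to 3 called genes with the largest change and an average of 1 CPM or more, and for each member the 3 genes with the highest Pearson correlation of log2 CPM (prior count 2). Some genes that this rule picks are not reported here. The members and lists were chosen with earlier results of these data known. Alternatives were DESeq2 1.42.0, its size factors, 2 other filters, a joint fit of the groups, a block for the replicate number, a term for the *mt-Nd3* set, the low *mt-Nd3* libraries alone, and leaving out each library. Gene positions came from a RefSeq table for GRCm38. Sequences are not shown, and levels are not compared between genes.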

Additional observations from a re-analysis of the deposited data

Results flagged for a closer look

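Of 30 sets of replicates tested (10 members in the 3 groups of 4 to 10 libraries), 3 held a library set apart from the others by a gap that is wide for the range of the group. About 1 set in 20 would be picked by chance. WT replicate 1 stood apart for *Lrrtm2* at 39.283 CPM, with the other 4 WT libraries at 32.9 to 34.5 CPM, and for *Slitrk2* at 24.47 CPM, with the others at 19.8 to 20.9 CPM. Without this library the log2 fold changes in *Nipbl+/-* brains were -0.36 for *Lrrtm2* and -0.24 for *Slitrk2*, and both were still called by edgeR. In double heterozygotes *Slitrk2* was still called (-0.19) and *Lrrtm2* was not (-0.15, adjusted *P* = 0.177). *WaplΔ/+* replicate 7 stood apart for *Slitrk6* at 6.2719 CPM, with the other 6 libraries at 4.95 to 5.45 CPM, a member with 126 to 229 counts per library.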

How the results depend on the processing

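The number of members called in *Nipbl+/-* brains, 7, was also found with DESeq2, its size factors, both other filters and a term for the *mt-Nd3* set (with *Slitrk3* in place of *Slitrk5* under the filter of 1 count), and was 5 in one fit of all groups and with the low *mt-Nd3* libraries alone. In double heterozygotes the number was 4, and 3 in those last 2 fits. Leaving out 1 library gave 5 to 9 members in *Nipbl+/-* brains (5 without *Nipbl+/-* replicate 1, 9 without *Nipbl+/-* replicate 2) and 2 to 6 in double heterozygotes (2 without WT replicate 1, double-heterozygote replicate 1 or replicate 4, and 6 without double-heterozygote replicate 2). It gave 0 throughout in *WaplΔ/+* brains, 0 to 1 between double heterozygotes and *WaplΔ/+* brains (*Slitrk2*, without *WaplΔ/+* replicate 1), 0 to 3 between the single heterozygotes (3 without *WaplΔ/+* replicate 1, 2 without *Nipbl+/-* replicate 2), and 0 for double heterozygotes against *Nipbl+/-* brains and for the interaction. Over all tested genes, these fits called 163 to 449 between double heterozygotes and *WaplΔ/+* brains, against 311 with every library. Between the single heterozygotes they called 69 to 600, against 354 with every library. One fit of all groups called 1 member (*Slitrk5*) between double heterozygotes and *WaplΔ/+* brains and 2 (*Lrrtm1* and *Slitrk4*) between the single heterozygotes, where DESeq2 called 3 and a filter of 1 count called 1 (*Slitrk4*), and DESeq2 called 1 (*Lrrtm2*) in the interaction. Counts over all genes in the joint fit and under the filter of 1 count are not given for these comparisons. Their member counts can thus not be separated from a change in calls over all tested genes. With the replicate block, 4 members were called in *Nipbl+/-* brains (*Lrrtm1*, *Lrrtm2*, *Slitrk2* and *Slitrk4*), 1 in *WaplΔ/+* brains (*Slitrk4*) and 2 in double heterozygotes (*Slitrk2* and *Slitrk4*). The replicate numbers were taken to share only a label. The deviations of same-numbered libraries from their group means correlated between -0.06 and 0.10 for *Nipbl+/-* and WT, between -0.12 and 0.13 for *WaplΔ/+* and WT and between -0.08 and 0.10 for double heterozygotes and WT. Between mutant groups they were 0.06 to 0.23 (double heterozygotes and *Nipbl+/-*), -0.21 to 0.30 (double heterozygotes and *WaplΔ/+*) and -0.17 to 0.37 (*Nipbl+/-* and *WaplΔ/+*), highest for replicate 1 each time, and no comparison had all its pairs above 0.1. The cause of these changes was not tested.

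Over 188 alternative fits of the 11 called member values, the call was kept in 161 and lost in 27, and the sign reversed in 0. *Lrrtm1*, *Lrrtm2*, *Slitrk2* and *Slitrk4* in *Nipbl+/-* brains and *Slitrk2* and *Slitrk4* in double heterozygotes were called in every one of these fits. Counts over all genes moved more. In *Nipbl+/-* brains 3422 genes were called, against 1658 in one fit of all groups, 1893 with the replicate block, 1881 in the low *mt-Nd3* libraries and 1828 to 4788 without single libraries. In *WaplΔ/+* brains the 677 genes called became 7 in one fit, 1446 with DESeq2, 1991 with the replicate block and 9 to 1534 without single libraries. In double heterozygotes the 1001 genes became 602 in one fit, 535 with the replicate block and 454 to 2504 without single libraries. The interaction had 0 genes with edgeR, 793 with DESeq2 and up to 945 with edgeR without a single library. Groups of 3 to 7 embryos and, for *Slitrk6* and *Slitrk4*, low counts limit the differences that could be detected.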

Other observations

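Cell types outside the neural lineage were followed as well. Among genes that averaged 1 CPM or more, 18.6% were called against WT in *Nipbl+/-*, 5.42% in double-heterozygote and 3.50% in *WaplΔ/+* brains. Microglial markers had 3 of 5 called lower in *Nipbl+/-* brains, *P2ry12* (-0.69, edgeR adjusted *P* = 0.015), *Cx3cr1* (-0.59, adjusted *P* = 0.000939) and *Csf1r* (-0.20, adjusted *P* = 0.0565), and their sum was 48.6 to 54.9 CPM against 58.7 to 70.4 CPM in WT. In double heterozygotes *Cx3cr1* was called lower (-0.40, edgeR adjusted *P* = 0.0091). Meningeal markers went the other way in *WaplΔ/+* brains, where 3 of 5 were called higher, the collagen genes *Col1a1* (0.62, edgeR adjusted *P* = 0.0952), *Col1a2* (0.38, adjusted *P* = 0.0891) and *Col3a1* (0.35, adjusted *P* = 0.0381). *Col3a1* was also called higher in *Nipbl+/-* brains (0.20, edgeR adjusted *P* = 0.0505). Of 5 endothelial markers *Cdh5* alone was called, higher in *Nipbl+/-* brains (0.16, edgeR adjusted *P* = 0.0368) and in *WaplΔ/+* brains (0.15, adjusted *P* = 0.0998). The log2 fold changes of 3 of the 5 were negative in *Nipbl+/-* brains (median -0.08) and those of 2 of 5 in *WaplΔ/+* brains (median 0.06). None of 5 blood markers was called by edgeR in the comparisons with WT. Of 5 choroid plexus markers *Otx2* alone was called, higher in *Nipbl+/-* brains (0.23, edgeR adjusted *P* = 0.0745) and in double heterozygotes (0.25, adjusted *P* = 0.0639). It also stands in the list of regional markers. In both comparisons 3 of the 5 markers had negative log2 fold changes, with medians of -0.17 in *Nipbl+/-* brains and -0.06 in double heterozygotes. Pituitary markers summed to 0.794 to 87.3 CPM in WT, 0.658 to 38.3 CPM in double heterozygotes, 1.27 to 2.15 CPM in *Nipbl+/-* and 1.16 to 2.55 CPM in *WaplΔ/+* brains, where 1 of 5 had 0 counts in all libraries. The growth hormone gene *Gh* passed the edgeR threshold in *WaplΔ/+* brains (-7.34, adjusted *P* = 0.0574), but it had 2056 counts in WT replicate 2 and 0 to 2 counts in the other 4 WT libraries. Without that library the log2 fold change was 2.09 and not called (edgeR adjusted *P* = 0.627), and DESeq2 called 0 of the 5 pituitary markers.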
